A study of Mus musculus with 6 samples.

Results

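The insulin-like growth factor (IGF) genes described here are the ligands Igf1 and Igf2, the receptors Igf1r and Igf2r, and the binding proteins Igfbp2 to Igfbp7. They were chosen by name, make up 10 of the 35127 genes in the files, and all 10 were detected and passed the filter on low counts. RNA of mouse astrocytes was sequenced in 2 groups of 3 libraries each. The tumour group is astrocytes isolated from brains with an allograft of small cell lung cancer (SCLC), a fast-growing tumour of neuroendocrine cells with frequent brain metastases. The sham group is astrocytes isolated from brains after a sham injection. The sources used here do not give strain, age, time after injection, the SCLC line or the way the astrocytes were purified. They also do not say whether the cells were cultured or how many animals stand behind a library. The comparison asks how these genes differ between astrocytes from brains with an SCLC allograft, labelled tumour-associated, and control astrocytes.

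IGF1 and IGF2 are secreted peptides that promote growth and survival by activating the receptor tyrosine kinase IGF1R. IGF2R, the cation-independent mannose 6-phosphate receptor, binds IGF2 and carries it to lysosomes without signalling like IGF1R. The secreted IGF binding proteins hold the ligands in the extracellular space, where they can block or prolong their action until proteases release them, and some also act on cells without IGF. In the adult brain Igf2 and Igfbp2 are known from the meninges and the choroid plexus, Igf1 from microglia and some neurons, and Igfbp2 also from astrocytes.

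The libraries held 22133723 to 25800897 estimated reads. They formed 3 sets: the tumour libraries, which were close to each other, sham 1 with sham 2, and sham 3 alone. Within a set, libraries differed by a root mean square of 0.322 to 0.352 in log2 over all tested genes. Tumour libraries differed from sham libraries by 0.734 to 0.749, and sham 3 differed from its 2 fellow sham libraries by 0.795 to 0.802. Counts within a set differed by more than counting noise (chi-square of 2.88 to 3.68 per degree of freedom, against 101 to 125 between sets), and all 6 were kept as samples, as labelled. Library preparation alone can add such noise, so these values do not show that the libraries of a set come from separate animals or cultures, and the p-values measure only the spread between these libraries. Each sham library is therefore given apart below. All 12 astrocyte markers were detected, with a summed level of 5065 to 5176 CPM (a library-size-scaled read count, with TMM factors) in the tumour libraries and 3522 to 6800 CPM in the sham libraries, lowest in sham 3. The 9 fibroblast and meningeal markers were also abundant, led by Col1a2, with a sum of 4538 to 4591 CPM in the tumour libraries and 4910 to 7484 CPM in the sham libraries, highest in sham 3. Of 14 microglia and macrophage markers 9 stayed below 1 CPM in every library, among them Cx3cr1, P2ry12 and Ptprc. Of 12 SCLC and neuroendocrine markers 5 did, among them Epcam with 0.236 to 0.331 CPM in the tumour libraries and 0 reads in the sham libraries.

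Of the 10 genes, Igf1r, Igfbp6 and Igfbp7 rose in the tumour libraries and Igfbp5 fell (edgeR quasi-likelihood F-test over 14359 genes, Benjamini-Hochberg adjusted p below 0.05). Over all tested genes 10.5% were called higher and 10.4% lower, so 3 and 1 calls among 10 genes are read against about 1 in each direction. The median log2 fold change of the 10 genes was 0.40, and that of all tested genes was -0.02. The tumour values lay above all sham values for 5 of the genes and below them for 2, whereas 22.2% and 21.9% of all tested genes had groups that did not overlap in these directions. Without any 1 tumour library edgeR called 0 of the 10 genes (6 at an unadjusted p below 0.05), beside 6.17%, 6.33% and 6.3% of all genes. Without sham 1, sham 2 or sham 3 the calls were 1, 3 and 9 of 10 genes, beside 11%, 10.4% and 57.7% of all genes. With each set of near libraries summed to 1 sample, edgeR called 0 of the 10 genes and 0% of all genes (0 and 573 at an unadjusted p below 0.05), in a fit of 1 tumour value against 2 sham values that leaves almost no room for a call. The share of all genes called was 18.1% by DESeq2, 21.6% by limma-voom, 12.9% without a filter on low counts, 20.8% with RLE factors, 14.2% with length offsets and 10% in the fit with a replicate block. That block left 1 of the 4 calls, Igf1r (edgeR adjusted p = 0.0329). The labels do not say whether the replicate numbers pair the libraries.

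**Figure D1:**
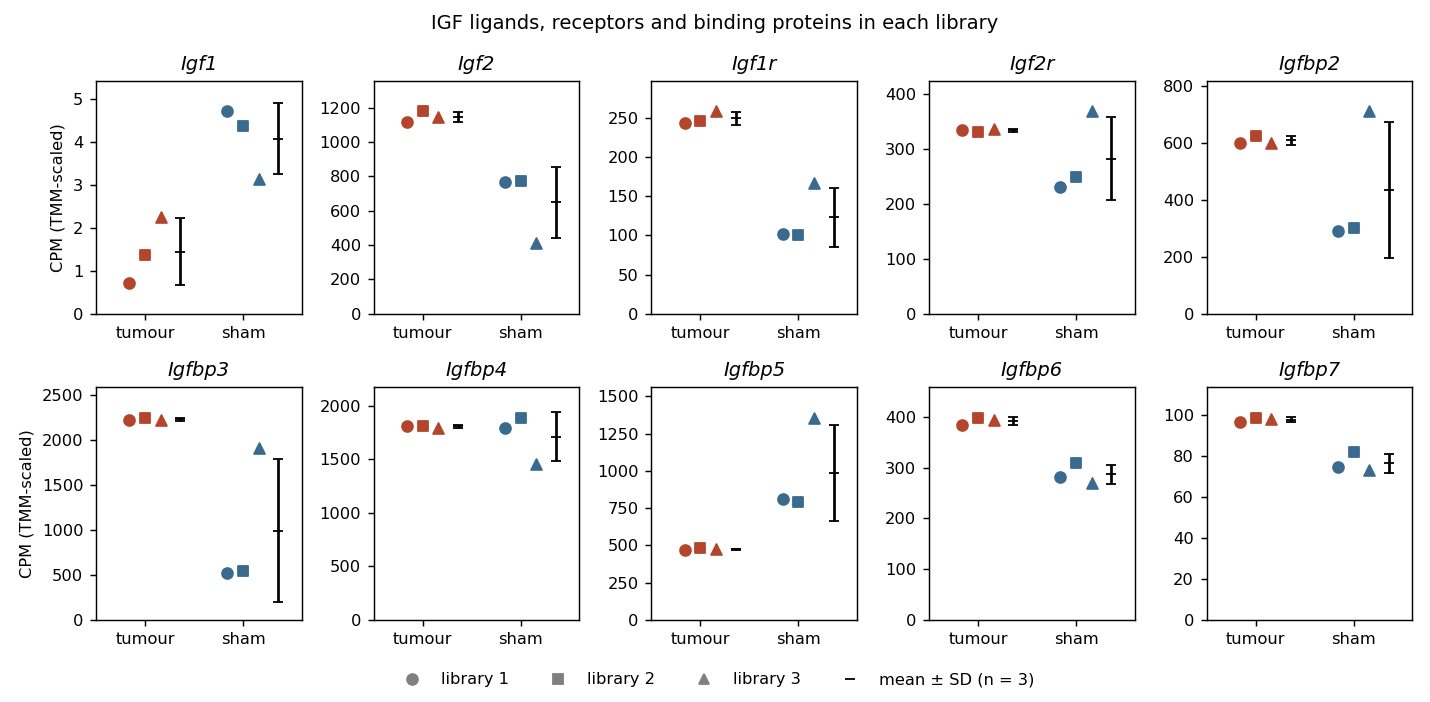
Level of each gene in CPM (TMM-scaled, linear axes from 0) in the 3 tumour and the 3 sham libraries, with the mean ± SD beside each group. Sham library 3 (triangle) lies near or above the tumour libraries for Igf2r, Igfbp2 and Igfbp3, while Igfbp6 and Igfbp7 have sham values close to each other and below the tumour values.

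Igf2 was by far the more abundant ligand gene. It stood at 1115, 1178 and 1143 CPM in tumour libraries 1 to 3, against 766, 773 and 410 CPM in sham libraries 1 to 3. Every tumour value was above every sham value, and sham 3 was the lowest library of all. The log2 fold change was 0.82 (SE 0.25, edgeR adjusted p = 0.0601), which missed the threshold. DESeq2 called Igf2 higher (adjusted p = 0.00458), and over all alternatives its log2 fold change was 0.57 to 0.97. Igf2 lies on mouse chromosome 7 from 142650766 to 142666816 on the minus strand (GRCm38). Of its 9 transcripts in the files, Igf2-201, which starts at 142657496, carried 67.1% to 70.8% of the gene's TPM in the tumour libraries and 70.2% to 79.2% in the sham libraries. Igf2-205, which starts further upstream at 142659489, carried 9.98% to 10.3% in the tumour libraries and 7.80% to 14.97% in the sham libraries. A noncoding transcript, Igf2-208, was assigned more than Igf2-205 in every tumour library, with 13.7% to 17.4%, and 9.31% to 18.7% in the sham libraries. The range of each of these transcripts overlapped between the groups. These shares are estimates, because Salmon splits reads that fit more than 1 transcript. Igf2 is known from the meninges and the choroid plexus, so both marker lists are given beside it. Of the 9 fibroblast and meningeal markers 1 rose and 3 fell, beside 10.5% and 10.4% of all tested genes. Pdgfra rose, with 252 to 264 CPM in the tumour libraries and 127 to 191 CPM in sham (edgeR log2 fold change 0.63, adjusted p = 0.0326). Pdgfra was also listed as a marker of oligodendrocyte precursors, so it is not particular to fibroblasts and meninges. The 3 that fell were Col3a1, Slc6a13 and Foxc1. Among the uncalled markers, Dcn lay above all sham values, with 155 to 157 CPM in the tumour libraries and 52.5 to 132 CPM in sham. Col1a1 (962 to 970 against 1070 to 1717 CPM) and Lum (40.1 to 43.6 against 45.9 to 60.8 CPM) lay below all sham values. In this list 2 markers lay above all sham values and 5 below, beside 22.2% and 21.9% of all tested genes. The 7 choroid plexus and ependymal markers summed to 1295 to 1328 CPM in the tumour libraries, against 279, 282 and 676 CPM in sham libraries 1 to 3. That difference was carried by Aqp1, the gene of the water channel aquaporin 1, with 1182 to 1214 CPM in the tumour libraries, against 113, 112 and 589 CPM in sham libraries 1 to 3 (log2 fold change 2.14, edgeR adjusted p = 0.0702). None of the 6 tested markers of that list was called, and the transthyretin gene Ttr stood at 5.61 to 8.99 CPM in the tumour libraries and 0.817 to 8.15 CPM in the sham libraries. The part of such cells in the Igf2 difference was not tested.

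Igf1 was close to the limit of what these libraries measure. It had 17, 33 and 57 reads in tumour libraries 1 to 3, against 107, 105 and 69 reads in sham libraries 1 to 3, or 0.704 to 2.25 CPM against 3.13 to 4.71 CPM. All tumour values were below all sham values, but the tumour libraries differed more from each other, relative to their mean, than for any other gene of the set. The log2 fold change was -1.49 (SE 0.42, edgeR adjusted p = 0.0513), which just missed the threshold. It was called lower by DESeq2 (adjusted p = 0.00579), by limma-voom (adjusted p = 0.0354) and without a filter on low counts (adjusted p = 0.0454), and its log2 fold change ranged from -1.97 to -1.17 when libraries were left out. In a bulk sample, fewer cells of a type that makes a transcript and less of it per cell cannot be told apart. Beside Igf1, the summed level of the 14 microglia and macrophage markers was 257 to 267 CPM in the tumour libraries and 182 to 203 CPM in the sham libraries. Of the 7 tested 2 rose, among them the lysosomal gene Cd68, and 0 fell, beside 10.5% and 10.4% of all tested genes. The complement gene C1qa, typical of microglia and macrophages, stood at 0.863 to 1.11 CPM in the tumour libraries, against 3.65, 3.99 and 0.635 CPM in sham libraries 1 to 3, and was not called. The part of such cells in the Igf1 difference was not tested.

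Igf1r rose. It stood at 244, 246 and 258 CPM in the tumour libraries, against 101, 101 and 167 CPM in sham libraries 1 to 3, and the groups did not overlap. Sham 3 was intermediate. The log2 fold change was 1.02 (SE 0.20, edgeR adjusted p = 0.0178), a fold of 2.03 over all sham libraries and of 2.47 over sham 1 and 2. The call was lost without any 1 library other than sham 3 (adjusted p = 0.0595 to 0.0781), while the log2 fold change stayed between 0.89 and 1.30. Igf1r lies on chromosome 7 from 67952827 to 68233668 on the plus strand, and its coding transcript Igf1r-201 held at least 95.6% of its TPM in every library. Igf2r was not called: it stood at 334, 332 and 336 CPM in the tumour libraries, against 230, 249 and 369 CPM in sham libraries 1 to 3, with sham 3 above all tumour values (log2 fold change 0.24, SE 0.18, edgeR adjusted p = 0.385). Compared per length, in TPM summed over transcripts, Igf2r was the more abundant receptor gene, at 1.69 ± 0.0646 times Igf1r in the tumour libraries and 2.91 ± 0.147 times in the sham libraries (SD, n = 3 each). This ratio was 2.82 to 3.08 in all 3 sham libraries, sham 3 included, and 1.62 to 1.75 in the tumour libraries.

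Igfbp3, the main carrier of IGFs in blood, was the most abundant gene of the set in the tumour libraries but divided the sham libraries. It stood at 2219, 2248 and 2216 CPM in the tumour libraries, against 520, 542 and 1913 CPM in sham libraries 1 to 3. The tumour values lay above all sham values, by a fold of 4.19 from the mean of sham 1 and 2 but only by a log2 difference of 0.22 from sham 3. The gene was therefore not called (log2 fold change 1.17, SE 0.52, edgeR adjusted p = 0.160). Without sham 3 the log2 fold change was 2.07 and the gene was called, in a fit that called 57.7% of all tested genes. Igfbp3 lies on chromosome 11 from 7206086 to 7213923 on the minus strand. Its neighbour Igfbp1, 3539 bases away, is known as the binding protein of liver and had a single read, in tumour library 2.

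Igfbp2, the binding protein gene best known from astrocytes and the choroid plexus, also divided the sham libraries. It stood at 601, 627 and 601 CPM in the tumour libraries, against 292, 300 and 712 CPM in sham libraries 1 to 3, so that sham 3 was above the tumour libraries and sham 1 and 2 were below them. It was not called (log2 fold change 0.49, SE 0.35, edgeR adjusted p = 0.366), and its log2 fold change without sham 3 was 1.04. In sham 3 the levels were 3.60 times for Igfbp3, and 2.40 times for Igfbp2, those of the mean of sham 1 and 2. For both genes the range of the sham libraries was wider than the difference between the group means.

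Igfbp5, which binds IGFs in the matrix around cells, fell. It stood at 471, 479 and 473 CPM in the tumour libraries, against 811, 790 and 1359 CPM in sham libraries 1 to 3. All tumour values were below all sham values, and sham 3 was the farthest from the tumour libraries. The log2 fold change was -1.06 (SE 0.22, edgeR adjusted p = 0.0208). The call was lost without any 1 of the tumour libraries (adjusted p up to 0.0970) and with the replicate block (adjusted p = 0.0502), but it was kept without each of the sham libraries, with log2 fold changes of -1.20 to -0.76. Igfbp5 and Igfbp2 are neighbours on chromosome 1. Igfbp2 runs from 72824503 to 72852474 on the plus strand and Igfbp5 from 72857932 to 72874884 on the minus strand, so they point towards each other with 5457 bases between their ends. The log2 fold changes of this pair had opposite signs, whereas sham 3 was above sham 1 and 2 for both.

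Igfbp6, which prefers IGF2 over IGF1, rose by a small step. It stood at 384, 399 and 395 CPM in the tumour libraries, against 281, 309 and 271 CPM in sham libraries 1 to 3. The groups did not overlap and sham 3 lay beside the other sham libraries. The log2 fold change was 0.45 (SE 0.08, edgeR adjusted p = 0.0136) and stayed between 0.41 and 0.50 when libraries were left out, although the adjusted p went up to 0.0770. Igfbp7, a relative with low affinity for IGFs that is known from blood vessels, rose as well. It stood at 96.4, 98.7 and 98.2 CPM in the tumour libraries, against 74.7, 81.8 and 72.9 CPM in sham libraries 1 to 3 (log2 fold change 0.35, SE 0.06, edgeR adjusted p = 0.0129). Its log2 fold change was 0.32 to 0.40 when libraries were left out, and the call of each of Igfbp6 and Igfbp7 was kept only without sham 2 or without sham 3. The 8 endothelial markers summed to 650 to 661 CPM in the tumour libraries and 575 to 635 CPM in the sham libraries, most of it Cdh5, the gene of VE-cadherin, with 573 to 577 CPM in the tumour libraries and 497 to 595 CPM in the sham libraries. Of the 6 tested 0 rose and 1 fell, beside 10.5% and 10.4% of all tested genes. The receptor gene Kdr fell, with 4.89 to 5.06 CPM in the tumour libraries and 9.98 to 13.4 CPM in sham (edgeR log2 fold change -1.29, adjusted p = 0.0035). Flt1 stood at 34.4 to 37.6 CPM in the tumour libraries, against 8.88, 8.94 and 33.9 CPM in sham libraries 1 to 3. Esam stood at 26.8 to 30.7 CPM, against 9.76, 11.4 and 26.4 CPM in the same libraries. Neither was called, but both lay above all sham values. In this list 2 markers lay above all sham values and 1 below, beside 22.2% and 21.9% of all tested genes. Cldn5 had 0 reads in all libraries and Pecam1 stayed below 1 CPM. The part of such cells in the Igfbp7 difference was not tested.

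Igfbp4, which holds IGFs back until the protease PAPP-A cuts it, had the smallest log2 fold change of the set. It stood at 1817, 1811 and 1798 CPM in the tumour libraries, against 1791, 1892 and 1461 CPM in sham libraries 1 to 3, with the tumour values inside the sham range. Its log2 fold change was 0.08 (SE 0.14, edgeR adjusted p = 0.727). A noncoding transcript, Igfbp4-203, was assigned 27.9% to 31.2% of the gene's TPM in the tumour libraries and 28.6% to 31.9% in the sham libraries.

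**Figure D2:**
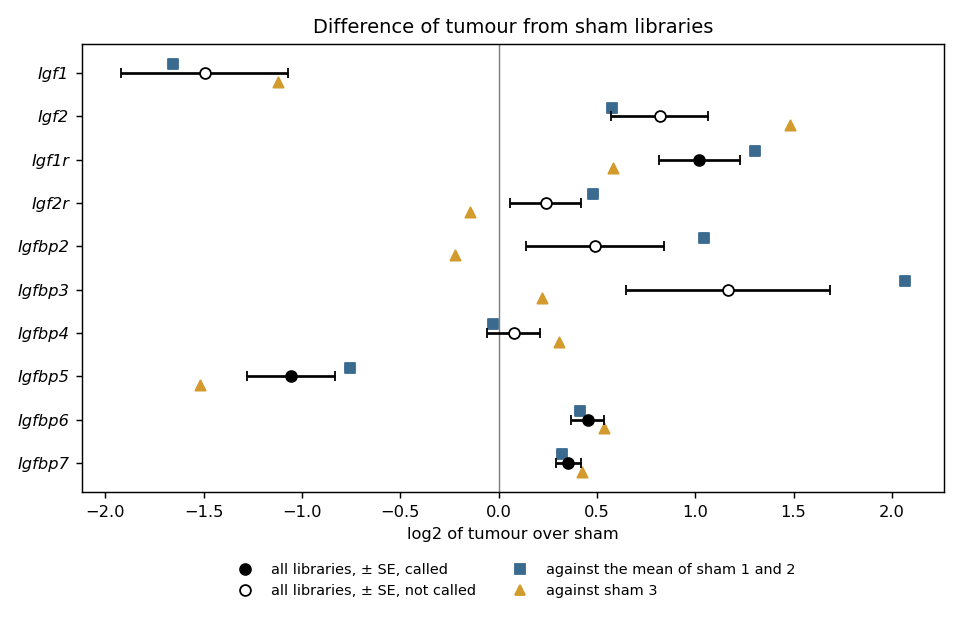
Log2 of tumour over sham for each gene: circles give the edgeR log2 fold change over all libraries with its SE (filled where called), squares the tumour mean against the mean of sham 1 and 2, and triangles the tumour mean against sham 3. The squares and triangles lie close together for Igfbp6 and Igfbp7 and far apart for Igfbp3 (2.07 and 0.22) and Igfbp2 (1.04 and -0.22).

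The order of the levels changed with the library. In TPM per gene, which can be compared between genes, the tumour order was Igfbp3 with 1433 ± 17.6, Igfbp4 with 1008 ± 13, Igfbp2 with 653 ± 18.7, Igfbp6 with 510 ± 4.98, Igf2 with 501 ± 4.03, Igfbp7 with 150 ± 3.36 and Igfbp5 with 104 ± 0.190 TPM (SD, n = 3), followed by Igf2r, Igf1r and Igf1 with 52.8, 31.4 and 0.503 TPM. Igfbp6 and Igf2 had overlapping ranges there, and all other neighbours in this order were apart. In sham 1 and 2 the order opened with Igfbp4, Igfbp6, Igfbp3 and Igf2, whereas in sham 3 it opened with Igfbp3, Igfbp4, Igfbp2 and Igfbp6, as in the tumour libraries. Over all 3 sham libraries, the ranges of Igfbp4, Igfbp3, Igfbp2 and Igfbp6 overlapped each with the next, as did those of Igf2 and Igfbp5.

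The 6 binding protein genes together made up 3888, 3869 and 3818 TPM in the tumour libraries, against 2221, 2394 and 3568 TPM in sham libraries 1 to 3. Igfbp3 took 37.1% ± 0.106 of this sum in the tumour libraries (SD, n = 3), against 14.5%, 14.4% and 34.3% in sham libraries 1 to 3. Igfbp4 took 26.1% ± 0.477 in the tumour libraries, against 43.8%, 43.2% and 23.6% in sham libraries 1 to 3. In these measures sham 3 lay with the tumour libraries. The share of Igfbp5 was different: it was 2.69% ± 0.0301 in the tumour libraries and 7.73% ± 0.630 in the sham libraries, with all 3 sham values between 7.14% and 8.39%. Within a library, Igfbp3 was 13.58 to 13.96 times as abundant as Igfbp5 in the tumour libraries, against 1.88, 2.02 and 4.09 times in sham libraries 1 to 3. These shares are descriptions, and no test was made on them.

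**Figure D3:**
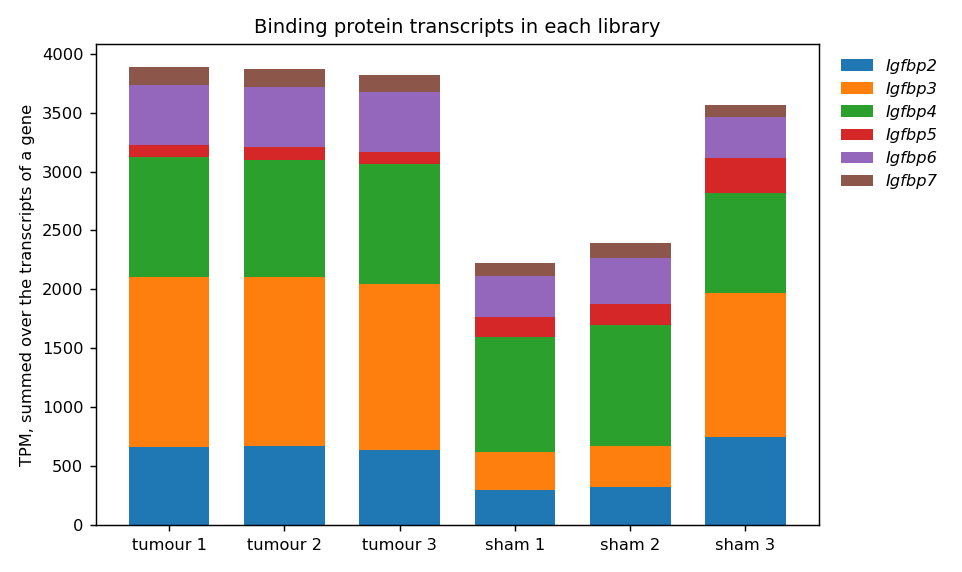
Stacked TPM of the 6 binding protein genes in each library (linear axis from 0). The tumour libraries and sham 3 have taller bars with a large Igfbp3 part, while Igfbp5 is thinnest in the 3 tumour libraries.

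Promoter sequences of 5 of these genes are shown because Igf1r, Igfbp5, Igfbp6 and Igfbp7 were called and Igfbp3 had the largest difference from sham 1 and 2. Each runs 5′ to 3′ on the gene's own strand over the 250 bases before the RefSeq start (GRCm38.p6), for Igfbp5 without 19 bases that GENCODE annotates as exon. The RefSeq start of Igf1r, 67952257, lies upstream of the start of Igf1r-201 at 67952827. That of Igfbp6, 102144186, lies upstream of the start of its transcript Igfbp6-201 at 102144362. The windows of Igf1r and Igfbp6 therefore do not adjoin the starts of these transcripts. Capitals mark ACGTG or GCGTG, cores of the site bound by hypoxia-inducible factors, and the TATA motif TATAAA, on either strand (a motif on the other strand shows as its reverse complement).
Igf1r promoter, chr7:67952007-67952256 (+ strand): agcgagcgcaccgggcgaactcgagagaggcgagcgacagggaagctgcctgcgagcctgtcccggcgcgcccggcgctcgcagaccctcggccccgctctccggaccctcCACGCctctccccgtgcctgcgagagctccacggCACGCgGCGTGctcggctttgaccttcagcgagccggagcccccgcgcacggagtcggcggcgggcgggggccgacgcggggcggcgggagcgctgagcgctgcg
Igfbp3 promoter, chr11:7213924-7214173 (- strand): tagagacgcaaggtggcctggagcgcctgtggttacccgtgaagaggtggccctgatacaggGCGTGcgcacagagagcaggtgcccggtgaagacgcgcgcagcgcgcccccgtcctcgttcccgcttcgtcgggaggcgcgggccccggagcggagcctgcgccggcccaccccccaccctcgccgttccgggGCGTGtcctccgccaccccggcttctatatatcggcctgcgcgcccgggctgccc
Igfbp5 promoter, chr1:72874885-72875115 (- strand): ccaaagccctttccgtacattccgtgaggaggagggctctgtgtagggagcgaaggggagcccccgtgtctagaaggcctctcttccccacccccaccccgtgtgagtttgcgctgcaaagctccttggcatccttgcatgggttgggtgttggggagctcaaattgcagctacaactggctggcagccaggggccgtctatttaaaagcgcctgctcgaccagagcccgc
Igfbp6 promoter, chr15:102143936-102144185 (+ strand): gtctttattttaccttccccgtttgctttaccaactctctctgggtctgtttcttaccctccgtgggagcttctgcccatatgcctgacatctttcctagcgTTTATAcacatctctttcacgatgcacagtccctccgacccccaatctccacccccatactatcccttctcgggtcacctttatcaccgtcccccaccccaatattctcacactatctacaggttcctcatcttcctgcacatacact
Igfbp7 promoter, chr5:77408046-77408295 (- strand): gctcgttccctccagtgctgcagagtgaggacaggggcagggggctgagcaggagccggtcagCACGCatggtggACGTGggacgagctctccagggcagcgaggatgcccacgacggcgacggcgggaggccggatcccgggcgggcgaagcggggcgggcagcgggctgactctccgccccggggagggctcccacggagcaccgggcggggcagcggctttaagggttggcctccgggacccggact
In the 250 bases before their starts, Igf1r had 3 such cores, Igfbp3 had 2, Igfbp7 had 2, and Igfbp5 and Igfbp6 had 0. Over all 14 RefSeq starts of the 10 genes, 7 windows held at least 1 core, against 38.6% of 32851 promoter windows of mouse genes. Igf2 and Igfbp2 have more than 1 of the 14 windows. The windows of Igf1 and of Igf2 at 142658805 to 142659054 are among the 7, and GENCODE annotates all 250 bases of each as exon. How many of all mouse windows lie in exons was not counted. TATAAA occurred before the start of Igfbp4, at position -28, and of Igfbp6, at position -148 on the other strand (counted back from the start), and in 12.4% of all windows. These matches describe the letters and do not show that a factor binds there.

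Genes with a like pattern over the 6 libraries were looked up for each called gene. Likeness was measured as the root mean square difference of centred log2 CPM among genes of at least 5 CPM, as a description. The genes nearest to Igf1r were Lhfpl2 (0.04), Fnip2 (0.05) and Dtx4 (0.05). Lhfpl2 stood at 73.6 to 74.4 CPM in the tumour libraries, against 31.6, 30.2 and 51.0 CPM in sham libraries 1 to 3. Nearest to Igfbp5 were Nes (0.04), the gene of the filament protein nestin, Tll1 (0.04) and Fasn (0.06), the gene of fatty acid synthase. Nes stood at 34.2 to 34.8 CPM in the tumour libraries, against 56.6, 53.7 and 98.5 CPM in sham libraries 1 to 3. Nearest to Igfbp6 included Nfxl1 (0.02) and Zbtb4 (0.03), and nearest to Igfbp7 were Strn4 (0.02), Tor1aip1 (0.03) and Ep300 (0.03).

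Other genes of the IGF system were taken from lists of 54 genes, of which 49 were tested. Of these 13 rose and 3 fell (edgeR adjusted p below 0.05), beside 10.5% and 10.4% of all genes, and the median log2 fold change was 0.26. Of the 16 calls 7 were kept whichever library was left out, namely those of Insr, Pappa2, Stc1, Stc2, Irs1, Irs2 and Foxo3. How many of the 2998 genes called overall were kept in this way was not counted, so 7 of 16 cannot be called unusual.

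Among proteases of the binding proteins and their inhibitors 4 of 10 genes rose and 0 fell, beside 10.5% and 10.4% of all tested genes. Pappa2, whose product cuts IGFBP3 and IGFBP5, stood at 7.87, 10.4 and 11.02 CPM in the tumour libraries, against 0.704, 0.873 and 1.77 CPM in sham libraries 1 to 3 (log2 fold change 3.13, SE 0.36, edgeR adjusted p = 0.00314). Pappa, whose product PAPP-A cuts IGFBP4, stood at 21.7, 22.4 and 20.5 CPM in the tumour libraries, against 13.9, 13.6 and 6.99 CPM in sham libraries 1 to 3 (log2 fold change 0.91, edgeR adjusted p = 0.0484), a call that ended without any 1 library other than sham 3. Both stanniocalcin genes, whose products inhibit these proteases, rose as well. Stc2 stood at 13.3, 15.5 and 14.5 CPM in the tumour libraries, against 1.45, 2.41 and 1.91 CPM in sham libraries 1 to 3 (log2 fold change 2.90, SE 0.20, edgeR adjusted p = 0.00064). Stc1 stood at 9.13 to 11.1 CPM in the tumour libraries, against 2.45 to 3.27 CPM in the sham libraries, and the edgeR log2 fold change was 1.80 with an SE of 0.17 (adjusted p = 0.00176). The sham values of these 2 genes lay close together in all 3 sham libraries. The most abundant genes of this list that were not called were Ctsd (cathepsin D; log2 fold change 0.10) and Mmp2 (matrix metalloproteinase 2; 0.27).

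Among the other ligands and receptors Insr, the insulin receptor gene, rose to 123 ± 3.94 CPM in the tumour libraries, against 83.7 ± 4.49 CPM in the sham libraries (SD, n = 3 each), a log2 fold change of 0.56 with an SE of 0.06. The mannose 6-phosphate receptor gene M6pr (0.16) and Lrp1 (0.28), whose product takes up many secreted proteins, were not called. The insulin genes were not measurable: Ins1 had 0 reads in every library, where 3 reads are worth 0.118 to 0.136 CPM, and Ins2 had at most 0.220 CPM. Among relatives of the binding proteins 1 gene rose and 2 fell of 9 tested, beside 10.5% and 10.4% of all tested genes. Esm1, an endothelial secreted proteoglycan gene with an IGFBP-like domain, stood at 70.6, 70.8 and 73.9 CPM in the tumour libraries, against 6.82, 5.32 and 20.01 CPM in sham libraries 1 to 3 (log2 fold change 2.75, SE 0.48, edgeR adjusted p = 0.0119), with the call lost without any 1 tumour library and a log2 fold change of 3.57 without sham 3. The matrix protein genes Ccn3 (-0.66, SE 0.14) and Ccn4 (-0.71, SE 0.18) fell, with calls that ended without any 1 library other than sham 3, whereas Ccn1 (0.54) and Ccn2 (-0.05) were not called.

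The adaptor genes Irs1 and Irs2 moved in opposite directions. Irs2 rose to 166 ± 1.14 CPM in the tumour libraries, against 95.6 ± 4.56 CPM in the sham libraries (SD, n = 3 each), and the edgeR log2 fold change was 0.80 with an SE of 0.06 (adjusted p = 0.000875). Irs1 fell to 59.5 ± 2.96 CPM in the tumour libraries, against 102 ± 12.1 CPM in the sham libraries, and the edgeR log2 fold change was -0.78 with an SE of 0.10 (adjusted p = 0.0039). Of 20 adaptor and kinase genes 5 rose and 1 fell, beside 10.5% and 10.4% of all tested genes. The kinase genes Pik3ca (0.36) and Pdpk1 (0.30) and the mTORC1 inhibitor gene Tsc1 (0.54) also rose, and the call of each was lost without at least 2 of the tumour libraries in turn, and those of Pik3ca and Pdpk1 also without sham 1 or sham 2. Grb10 (-0.35), which encodes a brake on both receptors, and Shc1 (-0.16) were not called. Of the 7 tested genes of FOXO factors and IGF2 mRNA binding proteins 2 rose and 0 fell, beside 10.5% and 10.4% of all tested genes. The 2 were Foxo3 (0.57, SE 0.07) and Foxo4 (0.37, SE 0.09), transcription factors that IGF signalling keeps out of the nucleus. The call of Foxo4 ended without any 1 library other than sham 3. Foxo1 (0.26) and Igf2bp2 (0.44) were not called.

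**Figure D4:**
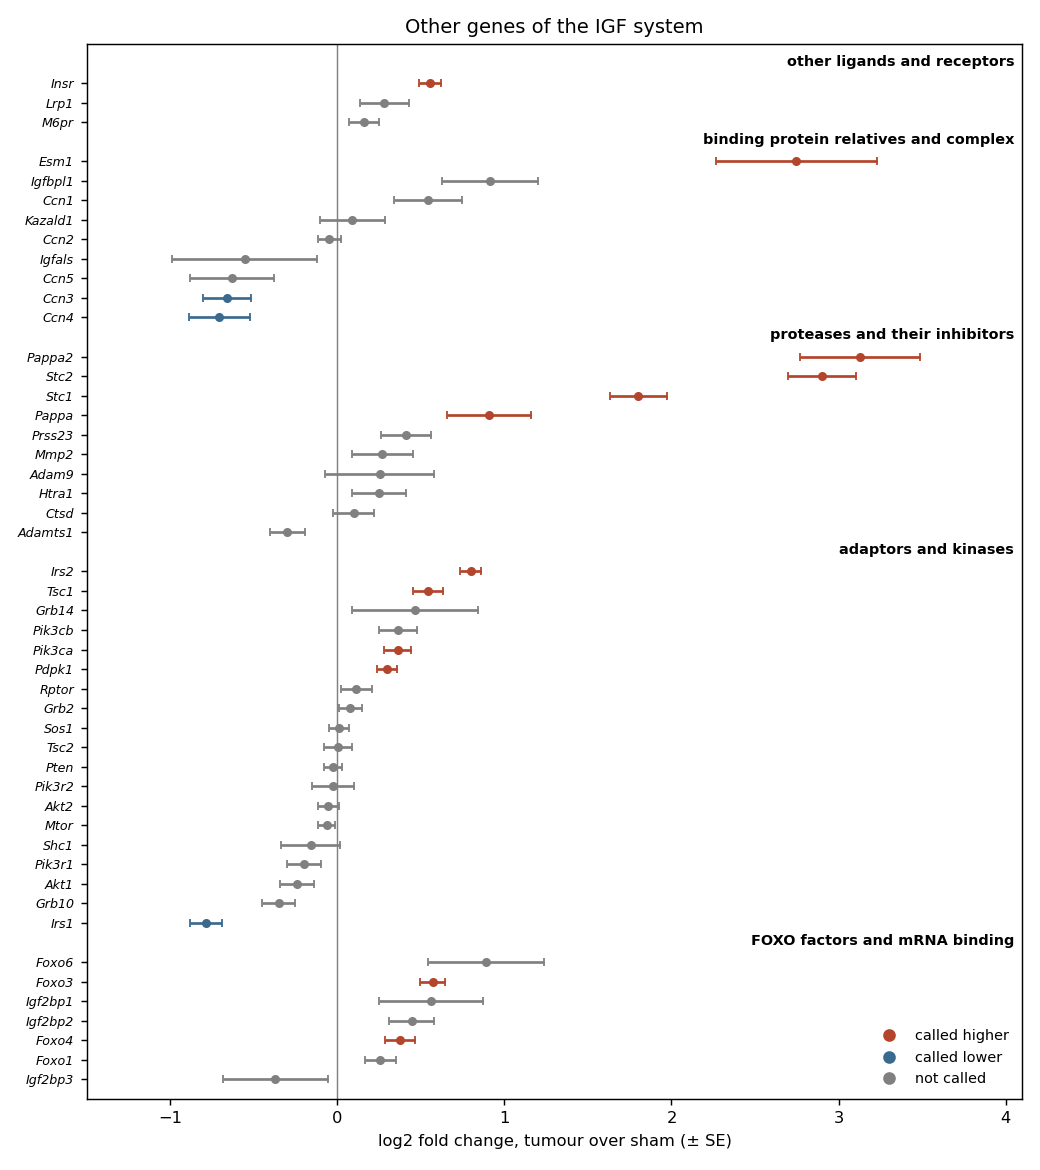
Log2 fold change (tumour over sham, ± SE) of the tested partner genes reported here, by list, coloured by call. Pappa2, Stc2, Esm1 and Stc1 stand farthest to the right, at 3.13, 2.90, 2.75 and 1.80, and Irs1 and Irs2 lie on opposite sides of 0.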

How the data were processed

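The deposited values are estimated counts and TPM per transcript in 1 table per library. The authors used Salmon 0.8.2, DESeq2 1.28.1 and the mm10 build, per the submitters' processing notes, without annotation release or bias settings. The estimated counts (whose deposited tables also give length and effective length in bases) were summed here per gene through GENCODE M21 (GRCm38) and rounded, as were the deposited TPM without rounding. Of 113116 transcripts 112841 matched, and they held at least 99.9% of the reads of each library.

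All genes were tested with edgeR 4.0.16 (TMM, filterByExpr with a minimum count of 10, robust quasi-likelihood, group as the only term), with Benjamini-Hochberg adjustment over 14359 genes and a threshold of 0.05; the scripts were tested on simulated data. Each SE is the log2 fold change divided by the root of F, so it restates the test. CPM use TMM library sizes. Alternatives were DESeq2 1.42.0, limma-voom (limma 3.58.1), RLE factors, no filter, length offsets, a replicate block, summed near libraries and leaving out each library. The named genes are the 10 members, the called partner genes with the 2 most abundant uncalled genes of each partner list, and the 3 genes nearest in pattern to each called member. Members, lists and tests were chosen with earlier results of these data known. A few genes that these rules name are not reported here. Promoter sequences are RefSeq's for GRCm38.p6. Replicates are separate samples by their labels only, so p-values cover only variation among these libraries, which can be technical.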

Additional observations from a re-analysis of the deposited data

How the results depend on the processing

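The 3 higher and 1 lower calls among the 10 genes were found again with RLE factors and with transcript length offsets. DESeq2 called 4 higher and 2 lower, limma-voom 3 and 2, and the fit without a filter on low counts 3 and 2, the added lower gene being Igf1. With the replicate block 1 of the 10 genes was higher and 0 were lower, and over all genes 1436 were called in place of 2998. Same-numbered libraries correlated at -0.02 to 0.01 in their deviations from group means. The distance of sham 3 from its fellows dominates the sham deviations and can hide a small shared effect. These values therefore cannot decide whether the replicate numbers pair the libraries. With near libraries summed, 0 of the 10 genes, 0 partner genes and 0 of all genes were called in either direction, in a fit with 3 values, whose size alone can give 0 calls. When single libraries were left out, 0 to 7 of the 10 genes were higher and 0 to 2 lower, 6 to 29 partner genes were higher and 1 to 8 lower, and 897 to 8429 of all genes were called; each upper end came without sham 3. Fewer libraries or residual degrees of freedom are part of how the block, summed and left-out fits are built; for the other shifts the cause was not tested. Length offsets left 8 partner genes higher, and DESeq2 called 5 lower. Only Igfbp4 changed sign, with -0.028 without sham 3, and it had 0.15 without sham 2. Log2 differences of TPM had the same sign as the main values for all 10 genes. Depth limits mainly Igf1, at 17 to 107 reads per library; counting error only is covered by such numbers.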

Other observations

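The balance of binding proteins and ligand, as a ratio within a library, does not depend on library scaling. The TPM of the 6 binding protein genes together was 7.65 to 7.76 times that of Igf2 in the tumour libraries, against 7.34, 7.09 and 21.5 times in sham libraries 1 to 3. Sham 1 and 2 thus lay close to the tumour libraries in this ratio, although both the sum and Igf2 stood above all sham values in the tumour libraries, and sham 3 stood apart with the lowest Igf2. Igf2 was 15.2 to 16.4 times as abundant as Igf1r in TPM in the tumour libraries, against 24.7, 26.9 and 7.98 times in sham libraries 1 to 3. Igfbp2 was 6.08 to 6.43 times as abundant in TPM as its neighbour Igfbp5 in the tumour libraries, against 1.76, 1.88 and 2.50 times in sham libraries 1 to 3.

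Igfbpl1, a relative of the binding proteins, stood at 102, 107 and 99.7 CPM in the tumour libraries, against 64.6, 68.7 and 30.4 CPM in sham libraries 1 to 3. It was not called (log2 fold change 0.91, edgeR adjusted p = 0.0677) and was singled out after its values were seen.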
